A study of Mus musculus with 32 samples.

Results

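Lipid droplet and lipolysis genes were described in mouse primary white adipocytes across siRNA silencing of Nfe2l1, Atf3 or both and across cholesterol loading. The set holds 10 genes, matched by gene name among the 56748 genes of the deposited count table, and all 10 passed the filter on low counts, as did 16984 genes in all. The members are the droplet coat genes Plin1, Plin2 and Plin4, the droplet fusion gene Cidec, the droplet assembly gene Bscl2, the lipase genes Pnpla2, Lipe and Mgll, the lipase activator Abhd5 and the lipase inhibitor G0s2. The adipocytes, labelled wild type apart from the knockdowns, came from murine subcutaneous fat, and poly(A) RNA was sequenced. They received siNfe2l1 with siAtf3 (double silencing), siAtf3 alone, siNfe2l1 alone or a scrambled siRNA, and each was followed by cholesterol (400 µM, for 6 h, conjugated to the carrier methyl-β-cyclodextrin) or by a control treatment, called control medium here. Whether the control treatment held the cyclodextrin carrier is not given in the sources used here. Each of the 8 groups had 4 libraries, labelled as biological replicates, with no word on shared cultures or animals. The stated purpose was to learn how these transcription factors bear on cholesterol handling and on inflammation set off by cholesterol.

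Adipocytes store triglyceride in lipid droplets, whose surface proteins decide how much of the core the lipases can reach. Adipose triglyceride lipase, encoded by Pnpla2, removes the first fatty acid, hormone-sensitive lipase, encoded by Lipe, acts on diglycerides and also on cholesteryl esters, and monoglyceride lipase, encoded by Mgll, finishes the work. Perilipin 1, encoded by Plin1, holds the co-activator ABHD5 away from adipose triglyceride lipase until kinase signalling frees it, and G0S2 blocks that lipase directly. Perilipin 2, encoded by Plin2, coats droplets in most cell types, and perilipin 4, encoded by Plin4, coats small nascent droplets in adipocytes. CIDEC lets droplets exchange lipid and grow, and seipin, encoded by Bscl2, acts where droplets form at the endoplasmic reticulum.

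The libraries held between 23457384 and 33828418 counts each, and the 10 genes took between 0.744% and 1.28% of them. Levels are CPM, counts brought to a common library size with edgeR's TMM factors, and tests are edgeR's quasi-likelihood tests with Benjamini-Hochberg adjustment over the 16984 genes, with a call at an adjusted p under 0.05. Adipocyte markers were abundant in scramble control libraries, with 7867 ± 106 CPM of Lpl, 5232 ± 155 CPM of Fabp4 and 925 ± 13.0 CPM of Adipoq (SD, n = 4). Markers of other cells were present too and moved with the groups. The 7 fibroblast markers tested summed to 6883 to 7813 CPM in scramble cholesterol libraries against 23066 to 24383 CPM in scramble control libraries, and the 12 macrophage markers to 146 to 180.1 CPM against 239.5 to 278 CPM. Of these, 6 fibroblast and 10 macrophage markers were called lower and 0 higher. The 6 endothelial markers summed to 360.0 to 439.6 CPM against 552 to 607 CPM, the 5 smooth muscle markers to 85.9 to 109 CPM against 451 to 498 CPM, and no tested marker was at 0 in any library. Of the endothelial markers 5 were called lower and 1, Cldn5, higher (2.68 ± 0.13 on the log2 scale), and of the smooth muscle markers 3 were lower and 1, Des, higher (0.81 ± 0.10). Their part in the results below was not tested, and in bulk RNA fewer cells of a type and less RNA per cell cannot be told apart. In control medium Nfe2l1 was at 114 ± 1.91 CPM after double silencing and 73.8 ± 8.66 CPM with siNfe2l1, against 487 ± 6.02 CPM with scramble. Atf3 in cholesterol was at 50.8 ± 2.99 CPM after double silencing and 40.9 ± 7.88 CPM with siAtf3, against 398 ± 129 CPM with scramble, log2 fold changes of -2.97 ± 0.28 and -3.28 ± 0.28. In control medium it was at 15.3 ± 1.41 CPM after double silencing and 10.1 ± 0.780 CPM with siAtf3, against 26.8 ± 2.43 CPM with scramble, with smaller log2 fold changes of -0.80 ± 0.30 (adjusted p = 0.0468) and -1.40 ± 0.31 (adjusted p = 0.000796).

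**Figure D1:**
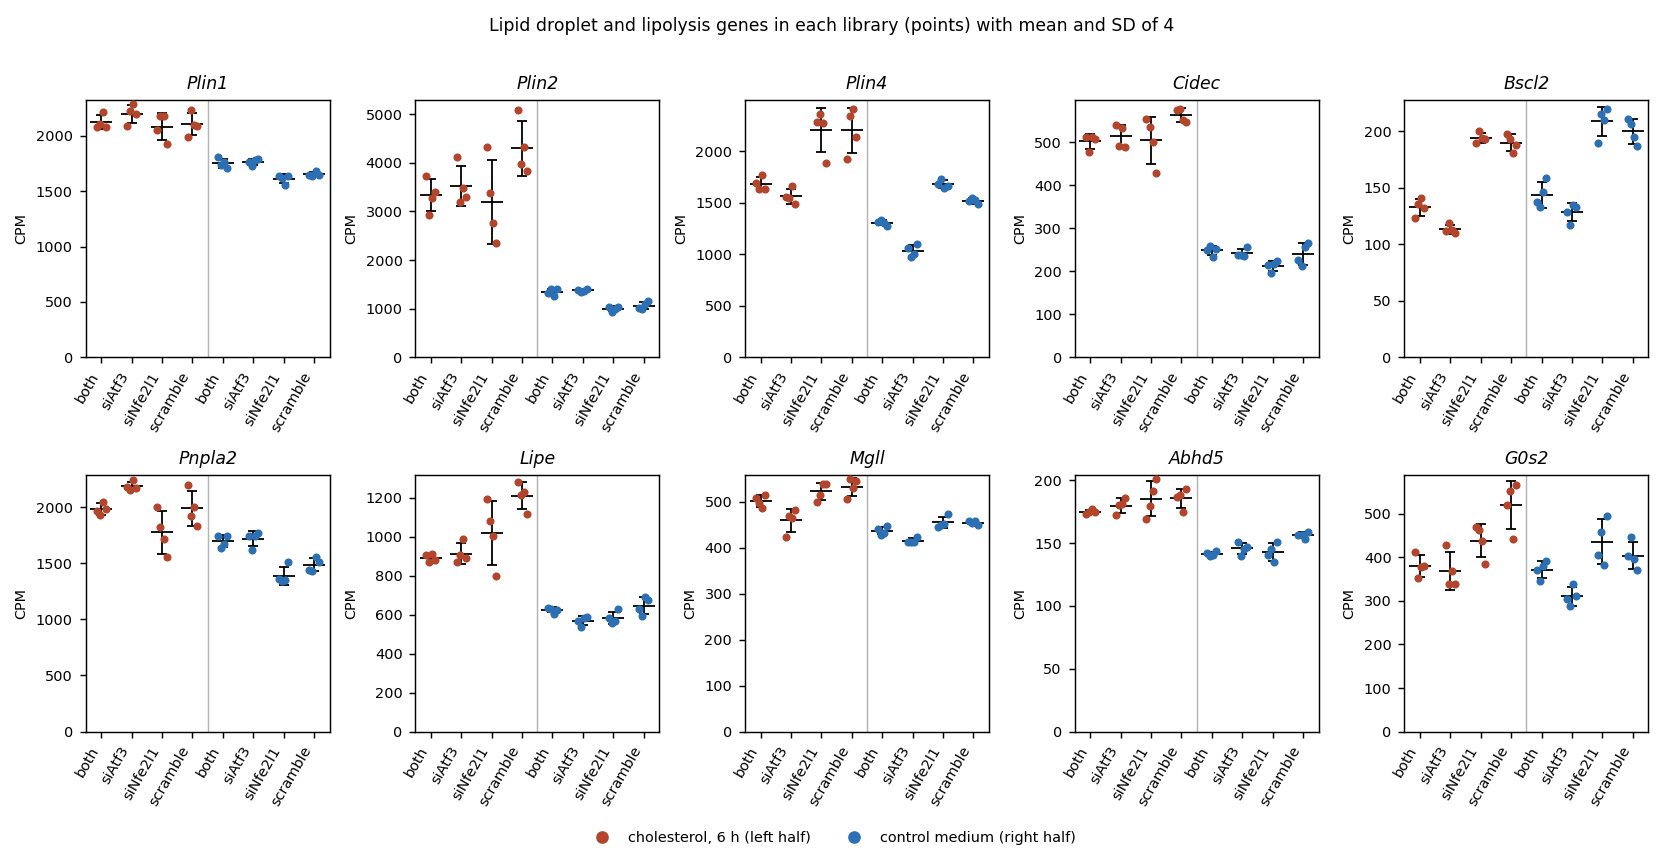
CPM of each of the 10 genes (y axis, from 0) in the 32 libraries, by siRNA treatment, with cholesterol groups on the left of each panel and control groups on the right; bars are mean and SD of 4 libraries. All genes but G0s2 and Bscl2 stood higher in every cholesterol library than in the control libraries of the same siRNA. Bscl2, Plin4, G0s2 and Mgll had their lowest means with siAtf3 in each medium.

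Levels of different genes were compared per kilobase of gene length, and Plin2 led in cholesterol in all 4 siRNA treatments. It averaged 951 ± 95.2 CPM per kilobase after double silencing, 1003 ± 117 with siAtf3, 910.4 ± 245 with siNfe2l1 and 1224 ± 159.5 with scramble (SD, n = 4), and in none of them did its libraries overlap those of the next gene, Pnpla2. In scramble cholesterol libraries Pnpla2 at 659.6 ± 52.0 and G0s2 at 598 ± 63.7 CPM per kilobase overlapped, as did Plin4 at 347 ± 34.4 and Cidec at 303 ± 8.48. At the foot of the order in cholesterol, Bscl2 was the lowest member at 22.5 ± 1.25 CPM per kilobase after double silencing, below Abhd5 at 29.4 ± 0.251. It was also lowest at 19.2 ± 0.642 with siAtf3, below Abhd5 at 30.2 ± 0.974, again without overlap, whereas the libraries of these genes overlapped in scramble cholesterol.

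The order in control medium was another one. In scramble control libraries Pnpla2 led with 493 ± 20.0 CPM per kilobase, followed by G0s2 with 464 ± 36.1 (SD, n = 4), and their libraries overlapped. Plin1 at 356 ± 4.24, Plin2 at 303 ± 20.2 and Plin4 at 239 ± 3.98 CPM per kilobase followed without overlap between neighbours. Cidec at 129.5 ± 13.5 and Lipe at 109.9 ± 7.47 CPM per kilobase overlapped. Mgll at 89.6 ± 0.721, Bscl2 at 33.9 ± 1.85 and Abhd5 at 26.2 ± 0.388 CPM per kilobase closed the order, again without overlap. Thus the lipase and its inhibitor stood side by side at the top, while the co-activator Abhd5 was the least abundant.

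**Figure D2:**
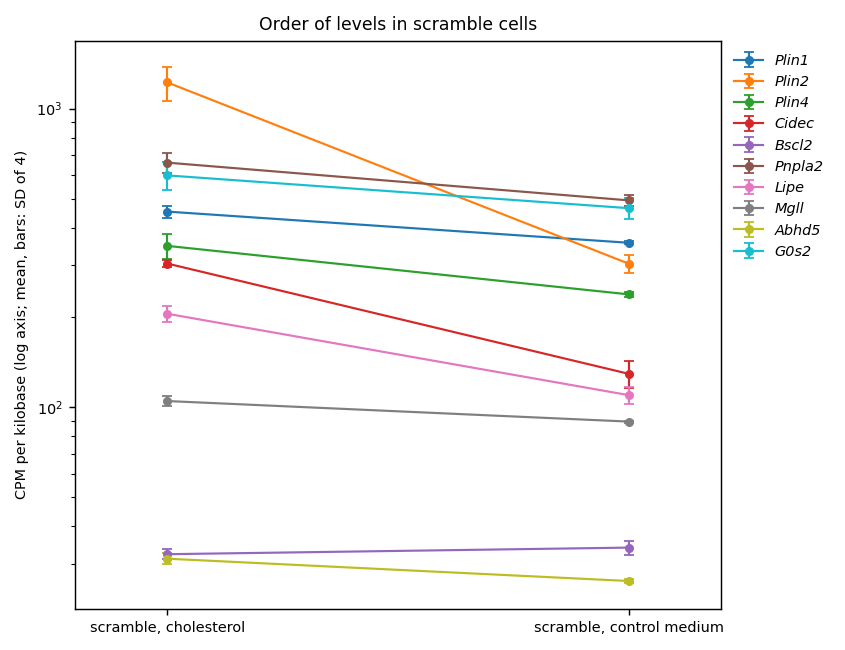
Mean CPM per kilobase (log axis; bars, SD of 4) of the 10 genes in scramble cells, cholesterol at left and control medium at right. Lines join the means of a gene; Plin2 stood above all others at 1224 CPM per kilobase in cholesterol, and below Pnpla2, G0s2 and Plin1 at 303 in control medium.

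Cholesterol raised 9 of the 10 genes in scramble cells, and Plin2, Cidec and Lipe rose most. Called higher were 32.9% of all genes tested, and 65.2% were called in either direction. The members' median log2 fold change was 0.39, and that of all genes tested was 0.00017. In 8 of 10 genes the cholesterol and control libraries did not overlap, as in 57.4% of all genes. The adipocyte markers summed to 20366 to 22602 CPM in these cholesterol libraries and to 17496 to 18113 CPM in control libraries, and 8 of the 10 were called higher and 1 lower.

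Among the coat genes, Plin2 (ENSMUSG00000028494, GRCm39 chr4:86566623-86588297, minus strand) read 5079, 3968, 4321 and 3826 CPM in scramble cholesterol libraries 1 to 4, against 1021, 990.1, 1093 and 1148 CPM in scramble control libraries 1 to 4. Every cholesterol library stood more than 3 times above every control library. Its log2 fold change was 2.02 ± 0.13 (SE, adjusted p = 1.42e-13), the largest of the 10. Plin1 (ENSMUSG00000030546, GRCm39 chr7:79369966-79382651, minus strand) had 1991, 2233, 2096 and 2091 CPM in cholesterol, against 1643, 1639.9, 1683 and 1649 CPM in control medium. Its groups were apart by far less, with a log2 fold change of 0.35 ± 0.041 (adjusted p = 2.84e-09). Plin4 (ENSMUSG00000002831, GRCm39 chr17:56407591-56416803, minus strand) had 1926, 2344, 2409 and 2141 CPM in cholesterol, against 1516, 1547, 1523 and 1485 CPM in control medium, a log2 fold change of 0.54 ± 0.058 (adjusted p = 3.02e-10). Its cholesterol libraries scattered more than its control libraries but all lay above them. Plin4 shares bases with Hdgfl2 on the other strand, which had 1444 counts per library on average against 42837 for Plin4, and the strand setting of the counts is not given in the sources used here.

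Of the genes for droplet growth and assembly, Cidec (ENSMUSG00000030278, GRCm39 chr6:113401595-113412721, minus strand) had 575, 577, 551 and 547 CPM in cholesterol, against 227, 212, 257 and 266 CPM in control medium. The cholesterol libraries lay within a narrow band far above the control libraries, and the log2 fold change was 1.23 ± 0.064 (SE, adjusted p = 2.31e-18). Bscl2 (ENSMUSG00000071657, GRCm39 chr19:8814831-8826047, plus strand) had 198, 194, 181 and 188 CPM in cholesterol, against 211, 207, 195 and 187 CPM in control medium. The groups overlapped, and its log2 fold change of -0.073 ± 0.055 was not called (adjusted p = 0.242). When libraries were scaled by their totals alone, which set the median of all genes at -0.12, Bscl2 was called lower at -0.20.

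Among the lipolysis genes, Lipe (ENSMUSG00000003123, GRCm39 chr7:25078952-25098135, minus strand) rose most. It read 1283, 1217, 1231 and 1115 CPM in cholesterol, against 628, 594, 690.0 and 675 CPM in control medium, with a log2 fold change of 0.91 ± 0.071 (SE, adjusted p = 2.8e-13). Pnpla2 (ENSMUSG00000025509, GRCm39 chr7:141035111-141040656, plus strand) had 2203, 1924, 2007 and 1835 CPM in cholesterol, against 1445, 1434, 1561 and 1517 CPM in control medium. Neither lipase had overlapping groups, and the log2 fold change of Pnpla2 was 0.42 ± 0.056 (adjusted p = 3.84e-08). Mgll (ENSMUSG00000033174, GRCm39 chr6:88701394-88805342, plus strand) averaged 533 ± 19.4 CPM in cholesterol and 455 ± 3.66 CPM in control medium (SD, n = 4), a log2 fold change of 0.23 ± 0.039 (adjusted p = 4.25e-06). Abhd5 (ENSMUSG00000032540, GRCm39 chr9:122180673-122210589, plus strand) averaged 186 ± 7.59 CPM in cholesterol and 156 ± 2.31 CPM in control medium, a log2 fold change of 0.25 ± 0.045 (adjusted p = 9.65e-06). The co-activator and the last lipase of the chain thus rose by small but called amounts. The inhibitor G0s2 (ENSMUSG00000009633, GRCm39 chr1:192954469-192955525, minus strand) had 521, 552, 443 and 567 CPM in cholesterol, against 404, 447, 396 and 372 CPM in control medium. Cholesterol library 3 lay below control library 2, so the groups overlapped, and the log2 fold change was 0.36 ± 0.085 (adjusted p = 0.000414). G0s2 shares bases with Lamb3 on the other strand, which had 1953 counts per library on average against 10524 for G0s2.

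Most of the set rose in the silenced cells too. After double silencing 8 of 10 rose and 0 fell, against 29.8% and 28.9% of all genes, with 58.7% called. With siAtf3 9 rose and 1 fell, against 29.4% and 28.6%, with 58.1% called, and with siNfe2l1 8 rose and 0 fell, against 31.1% and 29%, with 60.1% called. The libraries did not overlap for 8 of 10 genes after double silencing (56.4% of all genes), 8 with siAtf3 (54.8%) and 8 with siNfe2l1 (50.1%). The markers moved with cholesterol here too: 7 of 7 fibroblast markers were called lower in each of the 3 treatments, and of 12 macrophage markers 12 were lower after double silencing, 12 with siAtf3 and 10 with siNfe2l1. Of 10 adipocyte markers 6, 7 and 5 were higher in the same order and 1 was lower in each, of 6 endothelial markers 5, 5 and 4 were lower, and of 5 smooth muscle markers 3, 4 and 3, with 1 of each of these lists higher, and their part was not tested. Plin2 had log2 fold changes of 1.31 ± 0.12 after double silencing, 1.36 ± 0.12 with siAtf3 and 1.68 ± 0.13 with siNfe2l1. For Cidec they were 1.02 ± 0.064, 1.08 ± 0.064 and 1.24 ± 0.064 in the same order, and for Lipe 0.51 ± 0.071, 0.68 ± 0.071 and 0.81 ± 0.071. Plin1, Plin4, Pnpla2, Mgll and Abhd5 also rose in each, by 0.15 to 0.59 on the log2 scale. G0s2 was the exception: its log2 fold change was 0.031 ± 0.085 after double silencing (adjusted p = 0.771), 0.25 ± 0.085 with siAtf3 (adjusted p = 0.0146) and 0.0078 ± 0.085 with siNfe2l1 (adjusted p = 0.946). Bscl2 fell with siAtf3 by 0.18 (adjusted p = 0.00518), and was at -0.11 ± 0.055 after double silencing and -0.10 ± 0.054 with siNfe2l1, neither called. The G0s2 call with siAtf3 was lost without siAtf3 cholesterol library 1, and Bscl2 gained a call in 2 of the 8 fits leaving out 1 library in each of the other comparisons. Scaled by library totals or by DESeq2 size factors, Bscl2 was also called lower in these 2 comparisons, and with library totals Mgll (0.076) and G0s2 (0.17) lost their calls with siAtf3.

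**Figure D3:**
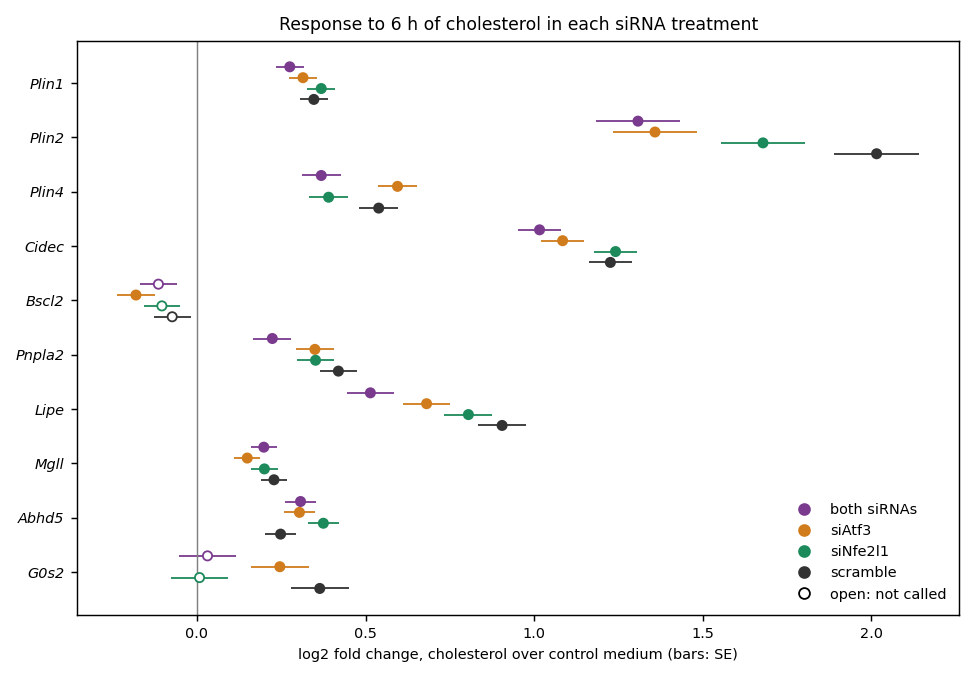
Log2 fold change of cholesterol over control medium (x axis; bars, SE) for the 10 genes in each siRNA treatment; filled points were called, open points were not. Plin2 was highest in every treatment, from 1.31 after double silencing to 2.02 with scramble, and Bscl2 was the lone gene below 0.

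The differences between these responses were tested as interactions. The Plin2 response was smaller with siAtf3 than with scramble, by 0.66 on the log2 scale (SE 0.17, adjusted p = 0.0118), and smaller after double silencing by 0.71 (SE 0.17, adjusted p = 0.00835). The Lipe response was smaller after double silencing by 0.39 (SE 0.10, adjusted p = 0.00891), and with siAtf3 the difference of -0.22 ± 0.10 was not called (adjusted p = 0.128). For G0s2 the difference of -0.33 ± 0.12 after double silencing was not called by edgeR (adjusted p = 0.0623), but was by DESeq2 and in 3 of the 16 edgeR fits leaving out 1 library. Called in either direction were 15.3% of all genes for siAtf3 and 13.7% for double silencing, so 1 and 2 of 10 members lay near the background. For siNfe2l1 no member's response was called different by edgeR (0.247% of all genes) or DESeq2, and the Plin2 difference was -0.34 ± 0.17 (adjusted p = 0.357). An unadjusted p under 0.05 was found for 1 member, without the share of all genes at that threshold. Without siNfe2l1 cholesterol library 1, the one with most Plin2, the differences of Plin2 (-0.53) and G0s2 (-0.41) were called.

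Silencing Atf3 shifted the set in both directions. In control medium 2 genes were called higher (18.1% of all genes) and 5 lower (18.2%), with 36.3% of all genes called, and in cholesterol 1 was called higher (23% of all genes) and 5 lower (27.4%), with 50.4% called. Plin4, Lipe, Mgll, G0s2 and Bscl2 were the lower ones in both media, and Pnpla2 was higher in both. The libraries did not overlap for 9 of 10 genes in control medium (41.3% of all genes) and for 6 of 10 in cholesterol (40.9%). The members' median log2 fold change was -0.12 in control medium and -0.25 in cholesterol, beside 0.014 and -0.016 for all genes. Of the adipocyte markers 5 of 10 were called lower and 0 higher in control medium, and 8 lower and 1 higher in cholesterol, and they summed to 13712 to 14738 CPM with siAtf3 against 17496 to 18113 CPM with scramble in control medium. The fibroblast markers summed to 16210.0 to 16904 CPM with siAtf3 against 23066 to 24383 CPM with scramble there. The macrophage markers summed to 316 to 413 CPM with siAtf3 against 239.5 to 278 CPM with scramble, and the endothelial markers to 440.1 to 462 CPM against 552 to 607 CPM. In cholesterol the fibroblast markers summed to 3677 to 4059 CPM with siAtf3 against 6883 to 7813 CPM with scramble, the endothelial markers to 258 to 290.1 CPM against 360.0 to 439.6 CPM, and the smooth muscle markers to 149.6 to 173 CPM against 85.9 to 109 CPM. The part of these markers in the results was not tested.

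Bscl2 changed most. In control medium it read 128, 117, 135 and 133 CPM in siAtf3 libraries 1 to 4, against 211, 207, 195 and 187 CPM in scramble libraries. In cholesterol it read 112, 119, 113 and 109.7 CPM with siAtf3, against 198, 194, 181 and 188 CPM with scramble. All 8 siAtf3 libraries lay below all 8 scramble libraries. The log2 fold changes were -0.64 ± 0.055 in control medium (SE, adjusted p = 8.28e-12) and -0.75 ± 0.055 in cholesterol (adjusted p = 1.45e-13).

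Plin4 behaved alike. It read 1065, 975, 1004 and 1096 CPM with siAtf3 in control medium, against 1516, 1547, 1523 and 1485 CPM with scramble there. In cholesterol its values were 1552, 1549, 1666 and 1488 CPM with siAtf3, against 1926, 2344, 2409 and 2141 CPM with scramble. Within each medium the groups were apart, with log2 fold changes of -0.55 ± 0.058 (SE, adjusted p = 9.63e-10) and -0.50 ± 0.058 (adjusted p = 5.88e-09). Plin2 was higher in control medium, at 1387, 1342, 1359 and 1407 CPM with siAtf3 against 1021, 990.1, 1093 and 1148 CPM with scramble, a log2 fold change of 0.37 ± 0.12 (adjusted p = 0.0189), whose call was lost without scramble control library 1 or 2. In cholesterol its difference of -0.29 ± 0.12 lay just outside the threshold (adjusted p = 0.0523). With the replicate number as a block it was called lower (adjusted p = 0.0312), as it was by DESeq2 (adjusted p = 0.0235). The same call came with DESeq2 size factors (adjusted p = 0.0495) and with the compared groups alone (adjusted p = 0.0394). Plin2 was also called lower without scramble cholesterol library 4 or siAtf3 cholesterol library 1, but not with library totals or without the filter. The remaining members of the droplet surface were not called in either medium in the main fit. Plin1 was at 0.10 ± 0.041 in control medium and 0.063 ± 0.041 in cholesterol, and Cidec at 0.0099 ± 0.063 and -0.13 ± 0.063. Plin1 was called higher in control medium with the compared groups alone (adjusted p = 0.00975). In cholesterol it was called higher without scramble library 2 or siAtf3 library 1.

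Of the lipolysis genes, G0s2 had 305, 288, 339 and 312 CPM with siAtf3 in control medium, against 404, 447, 396 and 372 CPM with scramble. In cholesterol it had 429.6, 339, 369 and 338 CPM with siAtf3, against 521, 552, 443 and 567 CPM with scramble. The inhibitor was lower in every siAtf3 library within each medium, with log2 fold changes of -0.38 ± 0.085 (SE, adjusted p = 0.000669) and -0.50 ± 0.085 (adjusted p = 1.33e-05). Its target Pnpla2 moved the other way, with 1745, 1619, 1742 and 1769 CPM with siAtf3 in control medium against 1445, 1434, 1561 and 1517 CPM with scramble, a log2 fold change of 0.21 ± 0.056 (adjusted p = 0.00337). In cholesterol the Pnpla2 groups overlapped and the log2 fold change was 0.14 ± 0.056 (adjusted p = 0.0398), a call lost without scramble cholesterol library 4. Lipe was lower in cholesterol, at 869, 906, 991 and 889 CPM with siAtf3 against 1283, 1217, 1231 and 1115 CPM with scramble, a log2 fold change of -0.41 ± 0.070 (adjusted p = 1.08e-05). In control medium Lipe was at -0.18 ± 0.071 (adjusted p = 0.0407), a call that 4 of the 8 fits leaving out 1 library lost. Mgll was at -0.13 ± 0.039 in control medium (adjusted p = 0.00762) and -0.21 ± 0.039 in cholesterol (adjusted p = 2.71e-05). Abhd5 was at -0.10 ± 0.045 and -0.045 ± 0.045, not called in either medium in the main fit. DESeq2 called it lower in control medium (adjusted p = 0.021).

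These splits depended on scaling, since TMM centres the median gene near 0. With library totals alone the median of all genes stood at 0.15 in control medium and 0.17 in cholesterol, and the members split into 4 higher and 3 lower in control medium and 3 higher and 4 lower in cholesterol. The shares of all genes given above are from the TMM fit, and those under library totals were not set beside these counts. Plin4, G0s2 and Bscl2 were called lower and Pnpla2 higher in both media under TMM, library totals and DESeq2 size factors alike. Mgll lost its calls under library totals and stood at 0.0057 in control medium and -0.025 in cholesterol, and Lipe stood at -0.045 in control medium, no longer called. Under library totals Plin1 was called higher in both media (0.23 and 0.25), Cidec in control medium (0.15) and Abhd5 in cholesterol (0.14).

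**Figure D4:**
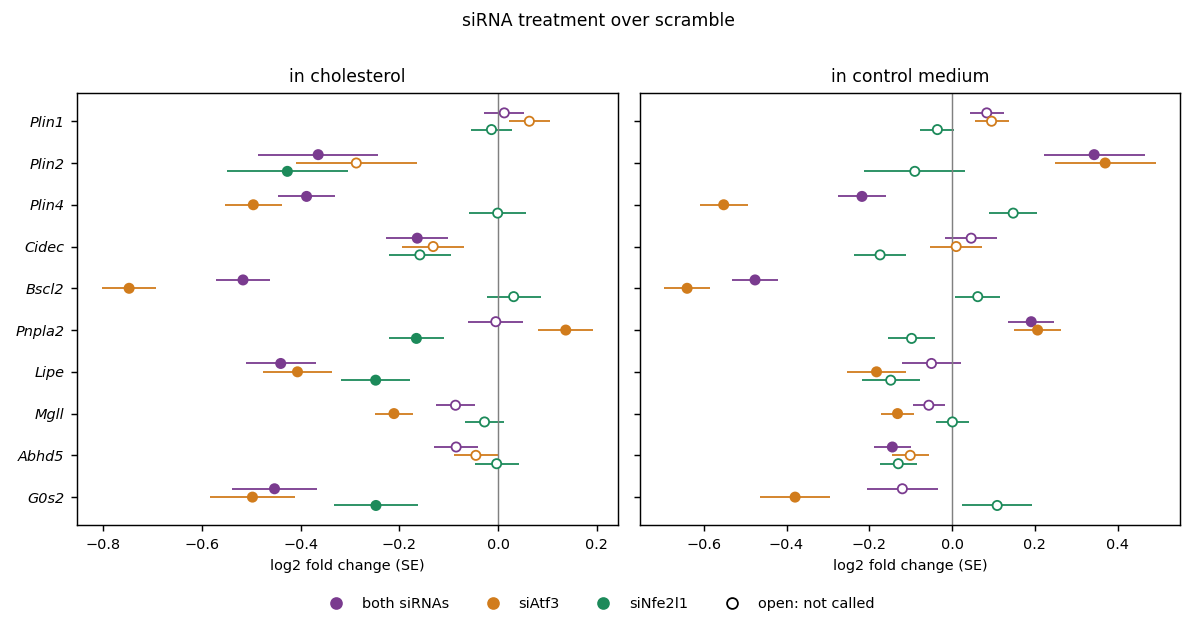
Log2 fold change over scramble (x axis; bars, SE) of double silencing, siAtf3 and siNfe2l1 in cholesterol (left) and control medium (right); filled points were called. With siAtf3, Bscl2 lay at -0.75 in cholesterol and -0.64 in control medium, and with siNfe2l1 all points in control medium were open.

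Double silencing lowered more of the 10 genes in cholesterol than it raised, and it was set against the same scramble libraries as siAtf3, which the comparisons thus share. In control medium 2 genes were higher (12.9% of all genes) and 3 lower (14.3%), with 27.2% called, and in cholesterol 0 were higher (20.8%) and 6 lower (23.9%), with 44.7% called. The libraries did not overlap for 7 of 10 genes in control medium (33.7% of all genes) and 6 in cholesterol (37.8%). The fibroblast markers summed to 4367 to 5138 CPM after double silencing against 6883 to 7813 CPM with scramble in cholesterol, and 5 of 7 were lower and 1 higher. The macrophage markers summed to 513 to 562 CPM after double silencing against 239.5 to 278 CPM with scramble in control medium, with 11 of 12 higher. Of 10 adipocyte markers 3 were lower in control medium and 6 in cholesterol, and the part of these markers was not tested. Bscl2 had 123, 135, 141 and 132 CPM after double silencing in cholesterol, against 198, 194, 181 and 188 CPM with scramble. Its libraries did not overlap those of scramble in either medium, with log2 fold changes of -0.48 ± 0.055 in control medium (SE, adjusted p = 1.48e-08) and -0.52 ± 0.055 in cholesterol (adjusted p = 1.57e-09). Plin4 was at -0.22 ± 0.058 in control medium (adjusted p = 0.00391), a call lost with library totals (-0.12), and -0.39 ± 0.058 in cholesterol (adjusted p = 1.07e-06).

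Lipe and G0s2 were lower after double silencing in cholesterol. Lipe had 909, 869.7, 913 and 879 CPM, against 1283, 1217, 1231 and 1115 CPM with scramble, a log2 fold change of -0.44 ± 0.070 (adjusted p = 4.55e-06). G0s2 had 412, 352, 377 and 380.3 CPM, against 521, 552, 443 and 567 CPM with scramble, a log2 fold change of -0.45 ± 0.085 (adjusted p = 6.48e-05). Neither differed by a called amount in control medium, with -0.050 ± 0.070 for Lipe and -0.12 ± 0.085 for G0s2. The direction for Plin2 differed between media. It was higher in control medium by 0.34 ± 0.12 (adjusted p = 0.0376), a call lost in 6 of the 8 fits leaving out 1 library, and lower in cholesterol by 0.36 (adjusted p = 0.0166), a call lost with library totals (-0.21), without scramble cholesterol library 1 and without double silencing cholesterol library 2. Pnpla2 was at 0.19 ± 0.056 in control medium (adjusted p = 0.00897) and -0.0049 ± 0.056 in cholesterol, where it was not called. Also called lower were Abhd5 in control medium (-0.14 ± 0.045, adjusted p = 0.014, lost with library totals at -0.044 and without the filter) and Cidec in cholesterol (-0.16 ± 0.063, adjusted p = 0.0318), and the Cidec call was lost in 6 of the 8 fits leaving out 1 library and with library totals (-0.014). With library totals the split was 3 higher and 1 lower in control medium and 2 higher and 4 lower in cholesterol, without the shares of all genes under that scaling.

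With Nfe2l1 silenced alone, members were called in cholesterol, with calls that depended on single libraries, and by edgeR none in control medium. In control medium edgeR called 0 higher (3.13% of all genes) and 0 lower (2.87%), with 5.99% called, and DESeq2 called 1. An unadjusted p under 0.05 was found for 4 members, without the share of all genes at that threshold. Their log2 fold changes there ran from -0.17 for Cidec to 0.15 for Plin4, and the groups were apart for 3 of 10 genes (13.8% of all genes). In cholesterol 4 genes were called lower and none higher (8.59% and 11.3% of all genes, and 19.9% in either direction), but for 0 of 10 genes were the groups apart, against 12.5% of all genes. The 12 macrophage markers summed to 318 to 479.7 CPM with siNfe2l1 against 239.5 to 278 CPM with scramble in control medium, with 10 called higher, and to 267 to 312 CPM against 146 to 180.1 CPM in cholesterol, with 11 higher. The 10 adipocyte markers summed to 15444.5 to 17491 CPM with siNfe2l1 against 17496 to 18113 CPM with scramble in control medium. In cholesterol they summed to 18835 to 19616 CPM against 20366 to 22602 CPM. Of them 2 were called higher and 1 lower in control medium, and 1 higher and 2 lower in cholesterol. Of 7 fibroblast markers 2 were higher in control medium and 3 in cholesterol, and of 6 endothelial markers 0 and 4. The part of all these markers was not tested.

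The 4 genes were Plin2, Pnpla2, Lipe and G0s2, and in each the spread within the groups was wide. Plin2 had 4316, 3378, 2752 and 2342 CPM in siNfe2l1 cholesterol libraries 1 to 4, against 5079, 3968, 4321 and 3826 CPM in scramble cholesterol libraries 1 to 4. Libraries 2, 3 and 4 with siNfe2l1 lay below all scramble libraries, and library 1 lay among them. The log2 fold change was -0.43 ± 0.12 (SE, adjusted p = 0.0147). Lipe had 1194, 1082, 1003 and 800.4 CPM with siNfe2l1, against 1283, 1217, 1231 and 1115 CPM with scramble, a log2 fold change of -0.25 ± 0.070 (adjusted p = 0.0114). Pnpla2 had 2006, 1827, 1714 and 1558 CPM with siNfe2l1, against 2203, 1924, 2007 and 1835 CPM with scramble, a log2 fold change of -0.17 ± 0.056 (adjusted p = 0.0324). In all 3 genes the libraries of the groups overlapped, with siNfe2l1 library 4 the lowest. G0s2 had 469.8, 462, 438 and 385 CPM with siNfe2l1, against 521, 552, 443 and 567 CPM with scramble, a log2 fold change of -0.25 ± 0.085 (adjusted p = 0.038). No call remained without scramble cholesterol library 1, without siNfe2l1 cholesterol libraries 3 and 4 together, or when the fit held only these 2 groups, and 1 remained without siNfe2l1 cholesterol library 3 or library 4. Cidec, at -0.16 ± 0.063 (adjusted p = 0.0706), was called lower without siNfe2l1 cholesterol library 1 or library 2.

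The comparison of double silencing with siNfe2l1 alone asks what the added siAtf3 did. It sets the same double-silenced libraries as above against siNfe2l1 libraries in place of scramble, so its results are not separate from those above. Nfe2l1 was less silenced after double silencing than with siNfe2l1 alone, with log2 fold changes of 0.63 ± 0.069 in control medium (adjusted p = 6.11e-09) and 0.39 ± 0.068 in cholesterol (adjusted p = 2.26e-05), so the comparison holds that difference too. In control medium 4 genes were called higher (12.3% of all genes) and 3 lower (14.5%), with 26.8% called, and in cholesterol 1 higher (15.7%) and 3 lower (20.9%), with 36.6% called. The libraries did not overlap for 6 of 10 genes in control medium (28.5% of all genes) and 2 in cholesterol (30%). In cholesterol 6 of 10 adipocyte, 6 of 7 fibroblast and 10 of 12 macrophage markers were called lower after double silencing, and their part was not tested. Bscl2 had 137, 133, 147 and 158 CPM after double silencing in control medium, against 190.1, 215, 210.2 and 219.9 CPM with siNfe2l1. Every double-silenced library lay below every siNfe2l1 library, with log2 fold changes of -0.54 ± 0.055 (SE, adjusted p = 1.09e-09) and, in cholesterol, -0.55 ± 0.055 (adjusted p = 5.7e-10). Plin4 was likewise lower, at -0.37 ± 0.058 (adjusted p = 6e-06) and -0.39 ± 0.058 (adjusted p = 1.55e-06). Pnpla2 was higher, at 0.29 ± 0.056 in control medium (adjusted p = 0.000131) and 0.16 ± 0.056 in cholesterol (adjusted p = 0.0221), where it was not called without siNfe2l1 libraries 3 and 4.

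Other genes were called in 1 medium, with the difference between media not tested. Plin1 (0.12 ± 0.041), Plin2 (0.43 ± 0.12) and Cidec (0.22 ± 0.063) were higher and G0s2 (-0.23 ± 0.085) was lower in control medium, with adjusted p-values of 0.0275, 0.00935, 0.00837 and 0.0448 in that order. The G0s2 call was lost with the replicate block (adjusted p = 0.0577), and leaving out 1 library lost it in 4 of 8 fits, that of Plin1 in 6 and that of Cidec in 1, in each case including the fit without siNfe2l1 control library 2. In cholesterol G0s2 was at -0.21 ± 0.085 (adjusted p = 0.0586), close to its value in control medium, and was called lower there by DESeq2, with only these groups in the fit, without siNfe2l1 library 4 and without siNfe2l1 libraries 3 and 4. In cholesterol Lipe was lower by 0.19 (adjusted p = 0.0304), and 7 of the 8 fits leaving out 1 library lost that call. With library totals the split was 5 higher and 2 lower in control medium and 2 higher and 2 lower in cholesterol, without the shares of all genes under that scaling. Whether the effects of the 2 siRNAs added up was tested as an interaction, and edgeR called no member in control medium (1.93% of all genes) or in cholesterol (5.09%). Unadjusted p-values were under 0.05 for 3 members in control medium and for 4 in cholesterol, and DESeq2 called 0 and 1. The share of all genes with an unadjusted p under 0.05 was not set beside these counts, so they show no excess. In cholesterol, Plin2 (0.53) and Lipe (0.30) were called without siNfe2l1 library 1, and G0s2 (0.37) was called without siAtf3 library 1.

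Ratios within a library do not depend on library scaling, and 3 were formed from levels per kilobase after the levels above had been seen, so they are given as a description with no test. The ratio of Plin2 to Plin1, the general coat gene over the adipocyte coat gene, was 2.72 ± 0.467 in scramble cholesterol libraries and 0.851 ± 0.0533 in scramble control libraries (SD, n = 4). Cholesterol and control libraries did not overlap in any of the 4 siRNA treatments. In control medium the ratio was 1.02 ± 0.0677 after double silencing and 1.03 ± 0.0131 with siAtf3, each above scramble without overlap, and 0.820 ± 0.0399 with siNfe2l1, which overlapped scramble. In cholesterol the means lay below that of scramble, at 2.09 ± 0.236 after double silencing, 2.13 ± 0.324 with siAtf3 and 2.03 ± 0.536 with siNfe2l1, and all of them overlapped the scramble cholesterol libraries.

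The ratio of Pnpla2 to its inhibitor G0s2 was 1.60 ± 0.0794 with siAtf3 in control medium, against 1.07 ± 0.113 with scramble there. In cholesterol it was 1.73 ± 0.183 with siAtf3, against 1.12 ± 0.176 with scramble. The libraries of siAtf3 and of double silencing did not overlap those of scramble in either medium. Between media the ratio overlapped in scramble cells and with siAtf3. It did not overlap after double silencing, at 1.51 ± 0.0913 in cholesterol against 1.32 ± 0.0475 in control medium, or with siNfe2l1, at 1.17 ± 0.0459 in cholesterol against 0.926 ± 0.0795 in control medium.

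The ratio of Lipe to Pnpla2 was higher in cholesterol, without overlap, in each siRNA treatment, as with scramble at 0.312 ± 0.0106 in cholesterol against 0.223 ± 0.00708 in control medium. With siAtf3 it was 0.214 ± 0.00930 in cholesterol and 0.170 ± 0.00219 in control medium, below scramble in the same medium without overlap.

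**Figure D5:**
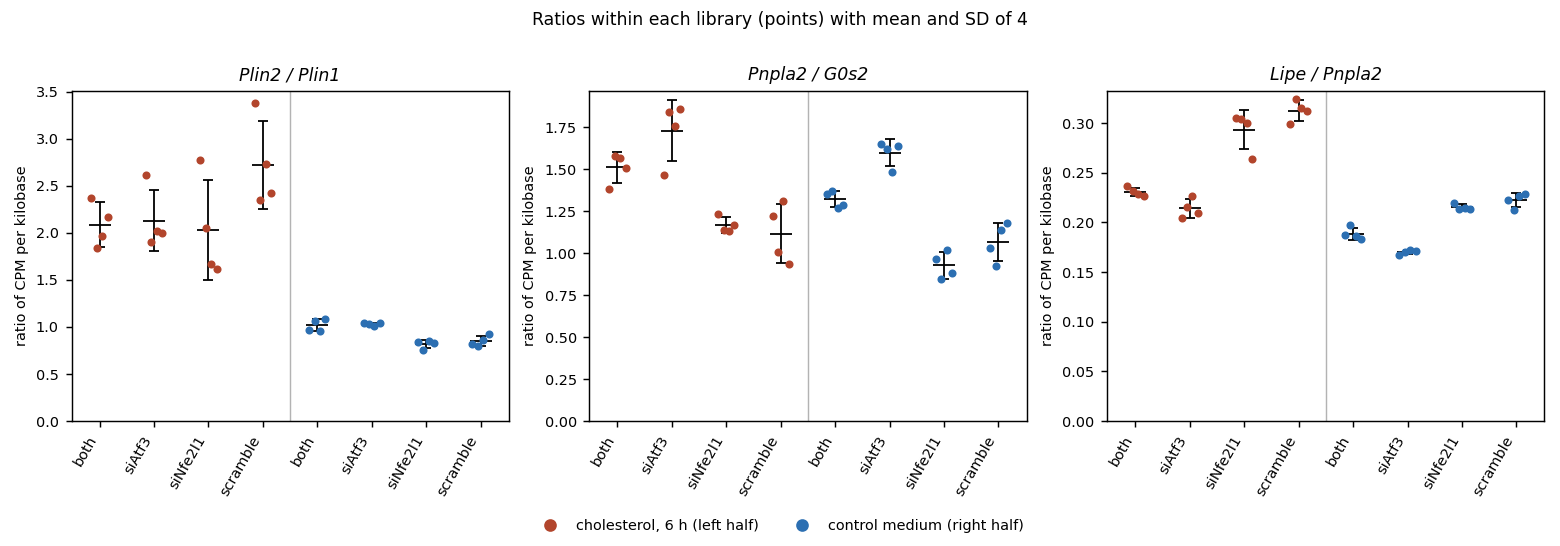
Ratios of levels per kilobase within each library (points; bars, mean and SD of 4), cholesterol groups at left and control groups at right in each panel. The Pnpla2 to G0s2 ratio was 1.27 or more in all libraries with siAtf3 or double silencing, and Plin2 to Plin1 was 1.61 or more in all cholesterol libraries.

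Other droplet proteins moved with cholesterol in both directions. Of 15 names listed, 14 were in the count table and 12 were tested. In scramble cells 6 were called higher and 4 lower (32.9% and 32.3% of all genes), with a median log2 fold change of 0.16. Hilpda, an inhibitor of adipose triglyceride lipase, averaged 173 ± 40.6 CPM in cholesterol and 19.6 ± 1.84 CPM in control medium (SD, n = 4), a log2 fold change of 3.15 ± 0.27 (SE, adjusted p = 1.09e-10). Fitm2, which acts in droplet formation at the endoplasmic reticulum, averaged 286 ± 13.3 CPM in cholesterol and 165 ± 11.9 CPM in control medium (0.79 ± 0.052, adjusted p = 8.54e-16). Cidea, a relative of Cidec, averaged 8.64 ± 1.28 CPM in cholesterol and 3.61 ± 0.408 CPM in control medium (1.26 ± 0.14, adjusted p = 3.89e-10), and the coat gene Plin3 rose by 0.50 ± 0.056 (adjusted p = 7.14e-10). Fitm2 was lower under siNfe2l1, at 179.7 ± 11.5 CPM against 286 ± 13.3 CPM with scramble in cholesterol. Its log2 fold change was -0.67 ± 0.051 there (adjusted p = 8.28e-12) and -0.57 ± 0.052 in control medium (adjusted p = 6.99e-10). That was the lowest of the 12 in control medium, but in cholesterol another of them was lower, at -0.88. With siAtf3, 2 of the 12 were higher and 2 lower in control medium (18.1% and 18.2% of all genes), near the background, and 2 were higher and 6 lower in cholesterol (23% and 27.4%). After double silencing 1 was higher and 2 lower in control medium (12.9% and 14.3%), and 3 were higher and 7 lower in cholesterol (20.8% and 23.9%). With siNfe2l1 the counts were 2 and 2 in control medium (3.13% and 2.87%) and 1 and 3 in cholesterol (11.3% and 8.59%). With siAtf3, Faf2, which takes part in the removal of droplet proteins, was lower than with scramble in both media (-0.21 ± 0.040 in control medium and -0.20 ± 0.040 in cholesterol), and the droplet hydrolase gene Ldah was higher in both with siAtf3 (0.19 ± 0.057 and 0.38 ± 0.058).

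Of the 8 other hydrolases of neutral lipids, cholesterol raised 5 and lowered 1 in scramble cells (32.9% and 32.3% of all genes), with a median log2 fold change of 0.28. The carboxylesterase gene Ces1f averaged 98.2 ± 10.1 CPM in cholesterol and 52.7 ± 3.27 CPM in control medium (0.90 ± 0.061, adjusted p = 3.33e-15), and Lipa, which encodes the lysosomal acid lipase, rose by 0.38 ± 0.051 (adjusted p = 5.18e-08). The esterase gene Aadac rose by 2.17 ± 0.22 (adjusted p = 7.74e-11) from a low level, with 1260 counts over all 32 libraries, the fewest of these hydrolases. With siAtf3, 2 were higher and 2 lower in each medium (18.1% and 18.2% of all genes in control medium, 23% and 27.4% in cholesterol), near the background. After double silencing 4 were higher and 1 lower in control medium (12.9% and 14.3%) and 2 were higher and 2 lower in cholesterol (20.8% and 23.9%), and with siNfe2l1 2 were higher in control medium (3.13%) and 1 in cholesterol (11.3%). Pnpla3, a relative of Pnpla2, averaged 82.3 ± 4.62 CPM with siAtf3 in control medium and 159.5 ± 14.1 CPM with scramble (SD, n = 4), a log2 fold change of -0.96 ± 0.076 (SE, adjusted p = 2.74e-12), and was at -1.07 ± 0.077 in cholesterol (adjusted p = 1.51e-13). Ces1d, which also hydrolyses triglyceride in adipocytes, was at -0.39 ± 0.049 and -0.48 ± 0.049 in the same media, whereas Lipa was at 0.42 ± 0.051 and 0.24 ± 0.051.

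The 20 genes of lipolytic signalling and of product handling were split in cholesterol, with 9 called higher and 5 lower in scramble cells (32.9% and 32.3% of all genes) and a median log2 fold change of 0.045. The 4 genes with the smallest adjusted p-values were Hcar2, Pde3b, Adcy6 and Adora1. Hcar2, the niacin receptor, averaged 46.4 ± 6.29 CPM in cholesterol and 14.6 ± 1.16 CPM in control medium (1.67 ± 0.11, adjusted p = 8.1e-15). Pde3b, which degrades cyclic AMP, averaged 629 ± 87.8 CPM in cholesterol and 327 ± 13.3 CPM in control medium (0.94 ± 0.072, adjusted p = 1.51e-13), and the adenosine receptor gene Adora1 rose by 0.70 ± 0.078 (adjusted p = 9.39e-10). Adcy6, an adenylyl cyclase gene, was lower in cholesterol, at -0.56 ± 0.060 (adjusted p = 3.41e-10).

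With siAtf3, 4 of these 20 were called higher and 9 lower in control medium (18.1% and 18.2% of all genes), and 6 higher and 8 lower in cholesterol (23% and 27.4%). Adora1 averaged 13.0 ± 1.60 CPM with siAtf3 in control medium and 26.1 ± 1.71 CPM with scramble (-1.01 ± 0.084, adjusted p = 3.72e-12), and was at -0.91 ± 0.079 in cholesterol (adjusted p = 7.06e-12). The fatty acid carrier gene Fabp5 was at -0.55 ± 0.056 in control medium (adjusted p = 4.5e-10), the kinase gene Prkaca at -0.33 ± 0.041 (adjusted p = 3.57e-08) and the natriuretic peptide receptor gene Npr1 at -0.61 ± 0.080 (adjusted p = 1.13e-07). In cholesterol Npr1 was at -1.08 ± 0.093 (adjusted p = 5.39e-12) and Hcar2 at -1.27 ± 0.11 (adjusted p = 1.19e-11). The siNfe2l1 comparisons called 3 of the 20 in control medium (5.99% of all genes) and 4 in cholesterol (19.9%), and double silencing 9 (27.2%) and 14 (44.7%).

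By the root mean square difference of log2 levels over the 8 group means, each centred on its own mean, the genes most like each member were sought among 10885 protein-coding genes. Pag1 (0.087) and Sat1 (0.11) lay nearest Plin2, which itself varied by a root mean square of 0.81 around its mean. Ptma (0.028) and Ergic2 (0.031) lay nearest Bscl2, Mettl25 (0.046) and Slc27a1 (0.060) nearest Plin4, and Ell (0.050) and Radil (0.060) nearest Lipe. For Cidec they were Noc3l (0.052) and Utp15 (0.057), for Pnpla2 Trnau1ap (0.032) and Tox4 (0.042), and for G0s2 Edf1 (0.053) and Ramac (0.054). Morc3 and Mzt1 lay nearest Plin1, Sun1 and Inf2 nearest Mgll, and Cluh and Kif5b nearest Abhd5. Among the members themselves the closest pair was Plin1 and Abhd5 (0.074), while the nearest member to Plin2, Cidec, was 0.25 away. The measure takes in the size of the changes, so members that moved the same way by different amounts lie apart by it. Whether the 10 genes shared a pattern apart from its size was not tested.

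RefSeq promoter windows on GRCm38.p6, which span 250 bases before to 50 after a start site, were found for 10 of 10 members, in 15 windows, and were searched on both strands because 9 members rose together in cholesterol. The motif TTGCNNAA, bound by C/EBP factors of the adipocyte programme, was present in 2 of the 15 member windows, near its share of 10.8% of all 32851 windows. The matches are shown 5′ to 3′ on the gene's strand with the motif in capitals. The stretches lie at chr6:113434946-113434971 for Cidec and at chr7:79732947-79732972 and chr7:79732818-79732843 for Plin1, all on the minus strand. The motif itself begins at base -198 relative to the start site for Cidec and at bases -187 and -58 for Plin1.
Cidec: agggctctaTTGCTCAAgggcccatg
Plin1 distal: acctctttaTTGCCTAAacatccccc
Plin1 proximal: tgagaggcaTTGCCCAAgattccctg
Cidec and Plin1 rose in cholesterol by 1.23 ± 0.064 and 0.35 ± 0.041 on the log2 scale in scramble cells. Members without a match rose there too, among them Plin2 by 2.02 and Lipe by 0.91. Any link between the matches and the response was not tested. No member window held a direct repeat of AGGTCA spaced by 1 base (PPAR with RXR, in 0.0396% of all windows) or by 4 bases (LXR with RXR, 0.0152%), TGACGTCA (the cyclic AMP response element, 1.79%), TGACNNNGC (the antioxidant response element, 12.4%) or GAANNTTC (the heat shock element, 7.86%). A match or its absence in these letters describes the window and says nothing of binding.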

How the data were processed

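Poly(A) RNA of 32 libraries (8 groups of 4) was measured as gene counts. Per the submitters' processing notes, the authors used fastp, HISAT2 2.0.5, featureCounts 1.5.0-p3 and the GRCm39/mm39 build; strand and multi-mapping settings are not given in the sources used here. The deposited table holds whole-number counts of reads per gene, unnormalised; its columns marked C were read as cholesterol. Of 56748 genes, 16984 passed edgeR's filter (minimum count 10, minimum total 15). The main fit was edgeR 4.0.16 (R 4.3.3, limma 3.58.1): TMM factors (0.886 to 1.10), robust quasi-likelihood fit over all 8 groups (24 residual degrees of freedom), Benjamini-Hochberg adjustment within each of 17 comparisons (12 between groups, 5 interactions) and calls at 0.05. Levels per kilobase divide CPM by the table's gene length. The code was tested on simulated data.

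Alternatives were DESeq2 1.42.0, its size factors, library totals, no filter, the replicate number as a block, the compared groups alone and leaving out each library; leaving out siNfe2l1 cholesterol libraries 3 and 4, and the ratios, were chosen after seeing the data. The replicate numbers were not taken as pairs in general: same-numbered libraries deviated together beyond r = 0.1 in every pair in 1 of 12 comparisons (siAtf3 against scramble in cholesterol, r from 0.188 to 0.366). There 3 of 4 libraries correlated best with their own number, as in double silencing against scramble or siNfe2l1 in cholesterol and for cholesterol with siAtf3. In the rest 0 to 2 of 4 did. For siNfe2l1 against scramble in cholesterol, r ran from -0.128 to 0.566. Some structure by number in the cholesterol groups thus remains possible. No replicate pair agreed within sampling noise (48 pairs, chi-square per degree of freedom from 2.62 to 40.5). p-values measure the spread between these libraries, whose separate cultures or animals are not given in the sources used here.

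The members and the gene lists were chosen with earlier results of these data known. All 10 members were named in the comparisons, with up to 4 called genes per list and comparison by smallest adjusted p, and per member the 2 most similar genes, sought among protein-coding ones whose average log2 CPM reached 2. Promoter sequences came from a RefSeq table on GRCm38.p6, used without converting coordinates.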

Additional observations from a re-analysis of the deposited data

Results flagged for a closer look

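Of 80 combinations of a member and a group, 4 held 1 library set apart from the other 3 by more than the 95% limit of Dixon's test, about as many as chance gives (1 in 20). These were Cidec with siAtf3 in control medium, where library 4 had 256 CPM, Cidec after double silencing in cholesterol, where library 2 had 477 CPM, Pnpla2 with siNfe2l1 in control medium, where library 4 had 1511 CPM, and Mgll with siAtf3 in control medium, where library 4 had 423 CPM.

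The response to cholesterol differed between siRNA treatments by edgeR's interaction test for 1 member with siAtf3 and 2 after double silencing. With siAtf3 against scramble the difference in log2 response was -0.66 for Plin2, and among the listed genes it was -0.23 for Plin3, -0.31 for Hsd17b11, -0.37 for Ces1f, -0.40 for Nceh1, 0.34 for Adcy6, 1.02 for Hcar1, -0.47 for Npr1, 0.47 for Npr3 and 0.39 for Insr. After double silencing it was -0.71 for Plin2, -0.39 for Lipe, -0.24 for Plin3, -0.33 for Plin5, -0.21 for Hsd17b11, -0.44 for Ces1f, 0.26 for Adcy6, 0.23 for Prkacb, 0.75 for Hcar1, -0.55 for Hcar2 and -0.36 for Aqp7. Both sets of differences share the scramble libraries.

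The effect of adding siAtf3 also differed between siNfe2l1 and scramble cells for some listed genes, and for no member. In control medium the difference was 0.37 for Fitm2 and 0.64 for Hcar2. In cholesterol it was 0.44 for Fitm2, -0.25 for Tmem159, 0.57 for Pnpla3, 0.24 for Ces1d, -0.46 for Adrb3, 0.50 for Hcar2 and 0.34 for Fabp5.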

How the results depend on the processing

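Of 77 member calls, 56 were kept under every alternative run, 21 were lost under at least 1, and 1 changed sign: Mgll with siAtf3 against scramble in control medium, at 0.0057 (adjusted p = 0.93) when libraries were scaled by totals. The count of called members stayed within 1.5 times in 99 of 107 alternatives and in 168 of 176 fits leaving out 1 library. The exceptions were as follows, with the cause not tested. With siNfe2l1 against scramble in control medium (0 called), DESeq2 called 1, the compared groups alone 1 and leaving out 1 library 0 to 1. In cholesterol (4 called), library totals called 2, the compared groups alone 0, the fit without libraries 3 and 4 called 0 and leaving out 1 library 0 to 5. Double silencing against scramble in control medium (5 called) had 3 without the filter. Double silencing against siNfe2l1 in control medium (7 called) had 4 to 7 when 1 library was left out. The interaction of siNfe2l1 with cholesterol (0 called) had 0 to 2 when 1 library was left out. The interaction of the siRNAs (0 called) had 2 in control medium with the compared groups alone, and in cholesterol 1 by DESeq2 and 0 to 2 when 1 library was left out.

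Over all genes, siNfe2l1 against scramble in cholesterol gave 3382 calls, 645 with the compared groups alone and 1206 without libraries 3 and 4. Its interaction with cholesterol gave 42 calls, 72 without the filter, 143 with the replicate block, 344 by DESeq2, 2 with the compared groups alone and 5 without libraries 3 and 4. The interaction of the siRNAs gave 328 calls in control medium (557 by DESeq2, 757 with the compared groups alone) and 865 in cholesterol (1337 by DESeq2, 259 with the compared groups alone, 312 without libraries 3 and 4). With the replicate block, Plin2 gained a call with siAtf3 against scramble in cholesterol (adjusted p = 0.0312), G0s2 lost one after double silencing against siNfe2l1 in control medium (adjusted p = 0.0577), and no other member call changed. In 0 of 12 comparisons did every library correlate best with the library of its own number, though 3 of 4 did so in some comparisons. Of 36 log2 differences of ratios between groups, 3 changed sign when 1 library was left out: Plin2 over Plin1 after double silencing against siNfe2l1 in cholesterol (-0.031 to 0.23), and Pnpla2 over G0s2 for cholesterol in scramble cells (-0.024 to 0.14) and for siNfe2l1 against scramble in cholesterol (-0.0045 to 0.16). With 4 libraries a group and none of the members near 0 counts, the spread between libraries set the precision.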

Other observations

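Library 1 held the most Plin2 in each cholesterol group, with 3736 CPM after double silencing, 4116 CPM with siAtf3, 4316 CPM with siNfe2l1 and 5079 CPM with scramble. In control medium it held the most in 1 of 4 groups, that with siNfe2l1. The labels do not say whether equal numbers mark a shared culture or day.

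Over the 8 group means, Plin2 spanned 4.30-fold between its lowest and highest group, Cidec 2.64-fold, Lipe and Plin4 2.13-fold each, Bscl2 1.84-fold, G0s2 1.67-fold, Pnpla2 1.57-fold, Plin1 1.36-fold, Abhd5 1.31-fold and Mgll 1.28-fold. Of the 12 comparisons between groups, Plin4 and Pnpla2 were called in 10, Plin2 and Lipe in 9, G0s2 and Bscl2 in 7, Cidec and Mgll in 6, and Plin1 and Abhd5 in 5. In the 7 of 12 comparisons that called it, Bscl2 was lower each time, and these comparisons share libraries, so they are not separate results.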
